A study of Caenorhabditis elegans with 8 samples.

Results

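Basic helix-loop-helix (bHLH) transcription factor genes were followed through RNA sequencing libraries of sorted Caenorhabditis elegans neurons. They were chosen by name from the table of gene counts: every gene whose symbol is hlh- and a digit, 25 in number, and 9 relatives with other names, lin-32, cnd-1, ngn-1, aha-1, ahr-1, hif-1, cky-1, lin-22 and sbp-1. These are 34 of the 46748 genes in the table, and the naming rule uses no measured value. All 8 libraries came from 4 RNA samples of untreated worms of strain OH10689, which carry on chromosome IV the transgene otIs355, rab-3(prom1)::2xNLS-TagRFP. It marks nuclei of neurons in red from the rab-3 promoter, and cells were sorted by that fluorescence. Worms were raised on nutrient agar with E. coli NA22, and their age is not given in the labels. Each RNA sample was split between SoLo Ovation, a ribodepletion kit, and SMARTseq V4, a kit that primes cDNA on poly(A) tails, so that the comparison asks how each kit measures these genes in the same RNA. Whether separate cultures or sorts gave the 4 RNA samples is not stated in the labels, and p-values therefore measure the spread between these samples, which may be technical.

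As background, bHLH proteins bind DNA as dimers through a basic region, most of them at short palindromes called E-boxes. Tissue-specific members, many of which select neural or muscle fates in development, pair with a broadly expressed E protein, which in C. elegans is HLH-2. Other branches carry a second dimerisation surface, either a PAS domain, as in the hypoxia factor HIF-1, or a leucine zipper, as in HLH-30, the TFEB homologue that controls autophagy and lysosome genes, and SBP-1, the SREBP homologue that controls lipid synthesis. In differentiated neurons a few neural members stay on as regulators of the identity of single neuron types.

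Library totals lay between 2354681 and 3454199 gene counts in SoLo and between 4510927 and 7099497 in SMARTseq. RNA sample 1 stood apart in both kits: the chi-square per gene between library 1 and the others was 29.8 to 32.5 in SoLo and 87.0 to 98.1 in SMARTseq, against 2.29 to 3.43 and 9.43 to 11.6 among libraries 2 to 4. Results that rest on it are given with and without it. Both kits measured the same RNA, but between RNA samples fewer cells of a type and less RNA per cell cannot be told apart in bulk libraries such as these. The 12 markers of neurons all had reads, and their summed level was 10424 to 13623 CPM (counts scaled to a common library size with TMM factors) in SoLo and 6733 to 9502 in SMARTseq. Markers of other tissues were present too, with body wall muscle at 7202 to 9084 CPM in SoLo and 13677 to 18314 in SMARTseq, mostly act-4 and unc-54.

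The short genes hlh-10, hlh-13, hlh-15, hlh-17, hlh-32 and hlh-34 and the longer hlh-30 had higher levels in SMARTseq, whereas hif-1 and hlh-11 had higher levels in SoLo. Of the 34 genes, 32 had at least 1 read and 13 passed the filter on low counts. Kit differences are log2(SoLo/SMARTseq) ± SE with n = 4 libraries per kit, from the quasi-likelihood test of edgeR with p-values adjusted by Benjamini-Hochberg over all 11378 tested genes, and a gene was called at an adjusted p under 0.05. Of the 13, 2 were called higher in SoLo, 7 were called higher in SMARTseq and 4 were not called. Among all tested genes 20% were called higher in SoLo and 27.6% higher in SMARTseq, 47.6% in all. The levels of the kits did not overlap for 9 of the 13, against 46.2% of all tested genes. The median log2 fold change was -1.06 over the 13 and 0.01 over all tested genes. Without RNA sample 1, 4 of 14 tested bHLH genes were called higher in SoLo and 7 in SMARTseq. Counts of 4 and 7 were also found with the RNA sample as a block. The counts over all genes rose too. Without RNA sample 1, 3005 of 11479 tested genes were called higher in SoLo and 3691 in SMARTseq. With the block it was 3290 and 3664 of 11378. When only library totals were used for scaling, the split of the bHLH genes was 5 and 6, and that of all 11378 tested genes 4318 and 2388. The median of all tested genes then moved from 0.01 to 0.56. With that scaling hlh-30 was at -0.52 (edgeR's adjusted p = 0.0691), hlh-11 at 1.03 and hif-1 at 1.28. Relative to the median of all genes they stood at -1.08, 0.48 and 0.73. Taking off the median nearly restores the centring of TMM, so these relative values are no separate check of the scaling.

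**Figure D1:**
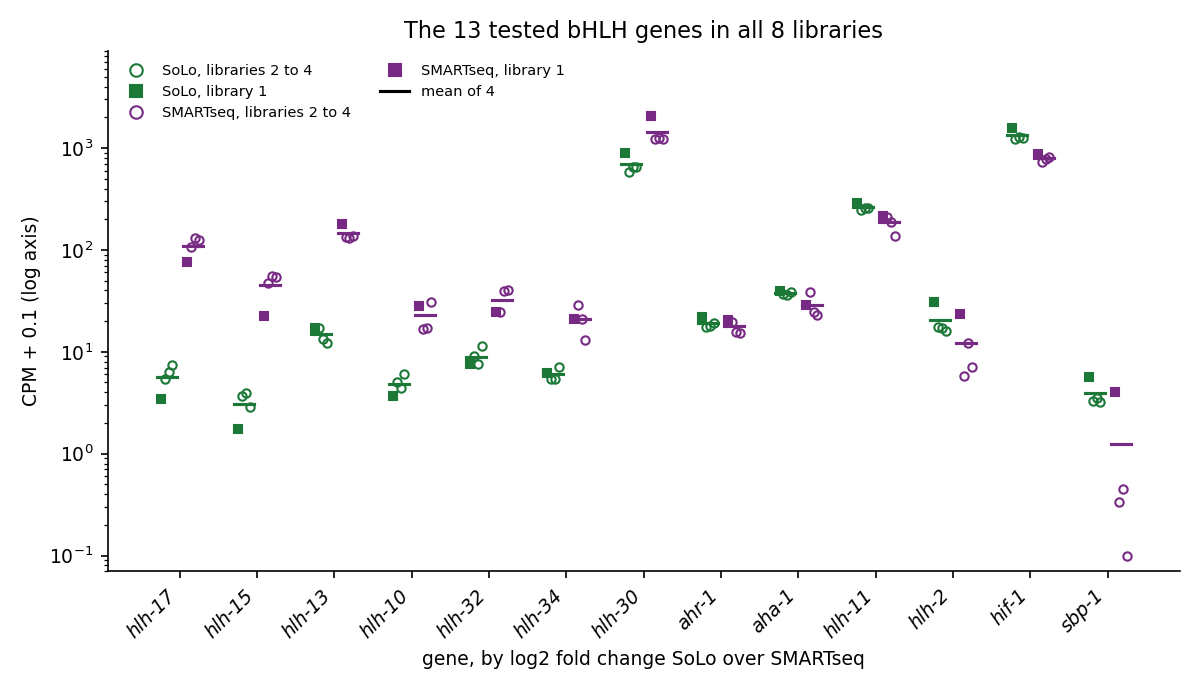
Levels of the 13 tested bHLH genes in CPM plus 0.1 (log axis) in each SoLo and SMARTseq library, ordered by log2 fold change; squares are library 1, open circles libraries 2 to 4 and bars the mean of 4. The 7 genes called higher in SMARTseq stand at the left without overlap between kits, and sbp-1 at the right reaches 0 in 1 SMARTseq library.

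Of the Olig-like genes, hlh-17 differed most between the kits. This gene, known from the glia that ensheathe the CEP dendrites, lies on chromosome IV (16254764 to 16256274, plus strand, WBcel235) with 543 exonic bases. Its level was 3.33, 5.35, 6.28 and 7.34 CPM in SoLo libraries 1 to 4 and 75.3, 107, 131 and 125 CPM in SMARTseq libraries 1 to 4. Every SMARTseq library was above every SoLo library, and library 1 was lowest in both kits. This is a log2 fold change of -4.29 ± 0.30 (edgeR's adjusted p = 3.77e-06), a 19.6-fold difference, and within the 4 RNA samples the log2 ratio of CPM plus 1 was between -4.18 and -3.91.

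Its close relative hlh-32 lies nearby on IV (16132464 to 16134290, plus strand, 467 exonic bases). It had 7.48, 8.92, 7.49 and 11.2 CPM in SoLo and 24.6, 24.6, 39.4 and 40.4 CPM in SMARTseq. Again no SoLo library reached the SMARTseq range, for a log2 fold change of -1.88 ± 0.28 (edgeR's adjusted p = 0.000414). Next to hlh-17, hlh-31 did not pass the filter, with 8, 1, 6 and 6 reads in SoLo and 27, 9, 11 and 7 in SMARTseq. The fourth Olig relative, hlh-16, had 20 reads in SMARTseq, all of them in library 1, and 0 in SoLo, so without that library it had none in either kit. Against a floor of 3 counts over the 4 SoLo libraries it was at least 4.598-fold higher in SMARTseq. Reads of hlh-17, hlh-31 and hlh-32 may have been shared or dropped where their sequences are alike, and how such reads were counted is not given in the sources used here.

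Markers of glia were also higher in SMARTseq, with 3 of the 4 that passed the filter called in that direction, against 27.6% of all tested genes. Their summed level was 341 to 388 CPM in SoLo against 534 to 1036 in SMARTseq. Most of that sum was lit-1, which is not restricted to glia, at 314 to 343 and 410 to 916 CPM. The more restricted fig-1 had 1.40 to 6.65 CPM in SoLo and 1.03 to 2.42 in SMARTseq, and delm-2 had 2 reads in all SoLo libraries together and 0 in SMARTseq. The part of glial RNA in the Olig values was not tested.

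The PTF1A homologue hlh-13, the NHLH homologue hlh-15 and hlh-10, whose protein dimerises with HLH-2, were higher in SMARTseq in 4 of 4 RNA samples. On the X chromosome, hlh-13 (4249249 to 4250766, plus strand, 632 exonic bases) had 17.2, 17.1, 13.3 and 12.2 CPM in SoLo and 178, 134, 131 and 138 CPM in SMARTseq. The kits were far apart and library 1 was highest in both. Its log2 fold change was -3.28 ± 0.20 (edgeR's adjusted p = 1.85e-06), a 9.71-fold difference.

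The shortest of the tested genes was hlh-15, with 375 exonic bases on X (2412953 to 2413377, minus strand). It had 1.66, 3.57, 3.87 and 2.80 CPM in SoLo and 22.4, 47.7, 55.5 and 54.1 CPM in SMARTseq. Unlike for hlh-13, library 1 was lowest in both kits, at 0.488 and 0.428 of the mean of libraries 2 to 4. In edgeR this gave a log2 fold change of -3.90 ± 0.39 (edgeR's adjusted p = 3.44e-05). Only 3.73% of its exonic bases overlap trpp-12 on the other strand, and the strand setting of the counting is not given in the sources used here. On V, hlh-10 (9280512 to 9282210, minus strand, 958 exonic bases) had 3.60, 4.99, 4.35 and 5.94 CPM in SoLo and 28.1, 16.5, 16.96 and 30.7 CPM in SMARTseq. Its groups did not overlap either, and the log2 fold change was -2.29 ± 0.32 (edgeR's adjusted p = 0.0003).

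The achaete-scute, Atonal, neurogenin and NeuroD relatives, which act mostly in developing neuroblasts, were near the limit of detection. Among them hlh-4, which specifies the ADL sensory neuron, had the most reads: 9, 0, 2 and 1 in SoLo and 143, 6, 10 and 4 in SMARTseq. Library 1 held most of its reads in both kits, at 8.99 times the mean CPM of libraries 2 to 4 in SoLo and 17.2 times in SMARTseq. Proneural hlh-3, used by the HSN and VC motor neurons, had 0, 1, 10 and 7 reads in SoLo and 0, 12, 5 and 12 in SMARTseq, and so was without a read in RNA sample 1 in either kit. The NeuroD homologue cnd-1 had 8, 2, 2 and 6 reads in SoLo and 8, 9, 24 and 10 in SMARTseq.

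Of lin-32, hlh-6, hlh-14, hlh-19 and ngn-1 each kit had 10 reads or fewer. The Atonal homologue lin-32 had 2 reads in SoLo and 4 in SMARTseq. For hlh-6, a gene of the pharyngeal glands, there were 3 and 7 reads, the latter all in SMARTseq library 2, while the 4 pharyngeal gland markers summed to 3.92 to 11.6 CPM in SoLo and 2.30 to 18.5 in SMARTseq. Of hlh-14 there were 2 and 6 reads, and hlh-19 and the neurogenin homologue ngn-1 had 2 reads and 1 read in SoLo library 1 and none elsewhere. Per effective library, the ratio of SoLo to SMARTseq reads for hlh-6 was 0.621 with a 95% Clopper-Pearson interval of 0.104 to 2.72, and those of lin-32 (0.0656 to 5.06) and hlh-14 (0.0477 to 2.70) likewise include 1, so that no difference between kits was detectable for these 3 genes. The interval was 0.0540 to 0.192 for hlh-4, 0.281 to 0.891 for cnd-1 and 0.471 to 1.68 for hlh-3. These intervals cover counting error only, not the spread between libraries.

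The E protein gene hlh-2 was higher in SoLo in 4 of 4 RNA samples, but its levels overlapped between the kits. On chromosome I (7190788 to 7193920, minus strand), it had 31.04, 17.5, 17.2 and 15.7 CPM in SoLo and 23.6, 5.67, 12.2 and 7.001 CPM in SMARTseq. Library 1 was highest in both kits, at 1.85 and 2.85 times the mean of the others. The log2 fold change was 0.74 ± 0.46 (edgeR's adjusted p = 0.216), and with the RNA sample as a block it was 0.86 ± 0.28 (edgeR's adjusted p = 0.0169). Without RNA sample 1 it was 0.97 (edgeR's adjusted p = 0.0286), and without SMARTseq library 1 alone it was 1.25 (edgeR's adjusted p = 0.0188).

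Of the mesodermal partners of HLH-2, the MyoD homologue hlh-1 had reads in SoLo only, namely 9, 1, 5 and 3 against 0 in all SMARTseq libraries. A floor of 3 counts over the 4 SMARTseq libraries puts the SoLo level at least 8.70-fold higher. It did not pass the filter, and the edgeR fit without a filter gave an adjusted p of 0.0137. Markers of body wall muscle, the tissue of hlh-1, had 4 genes called higher in SoLo and 2 in SMARTseq out of 8, with a median log2 fold change of 0.22. Their summed level went the other way, at 7202 to 9084 CPM in SoLo and 13677 to 18314 in SMARTseq. The part of these markers' tissue in the hlh-1 reads was not tested. Of the exonic bases of hlh-1, 5.69% overlap B0304.4 on the other strand. The Twist homologue hlh-8 had 0, 4, 6 and 3 reads in SoLo and 0, 0, 1 and 7 in SMARTseq.

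HES-like repressor genes, which act downstream of Notch in many animals, were almost without reads. Both hlh-25 and hlh-26 had none in any library. Their neighbour on II, hlh-27, had 4 reads in SoLo and 1 in SMARTseq, with a ratio of 5.80 and an interval of 0.574 to 286. For hlh-28 and hlh-29, which lie on opposite strands of X at equal exonic lengths of 1047 bases, 1 read and 3 reads were counted in all, and reads of such similar copies are uncertain. The repressor gene lin-22 had 2 reads in each kit. Of the other genes below the filter, hlh-33 had 20 reads in SoLo and 9 in SMARTseq. Per effective library its ratio was 3.22, with an interval of 1.40 to 8.04 that covers counting error only. The gene hlh-12, needed for migration of the gonadal distal tip cells, had 0 reads in SoLo and 11 in SMARTseq, 9 of them in library 4.

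**Figure D2:**
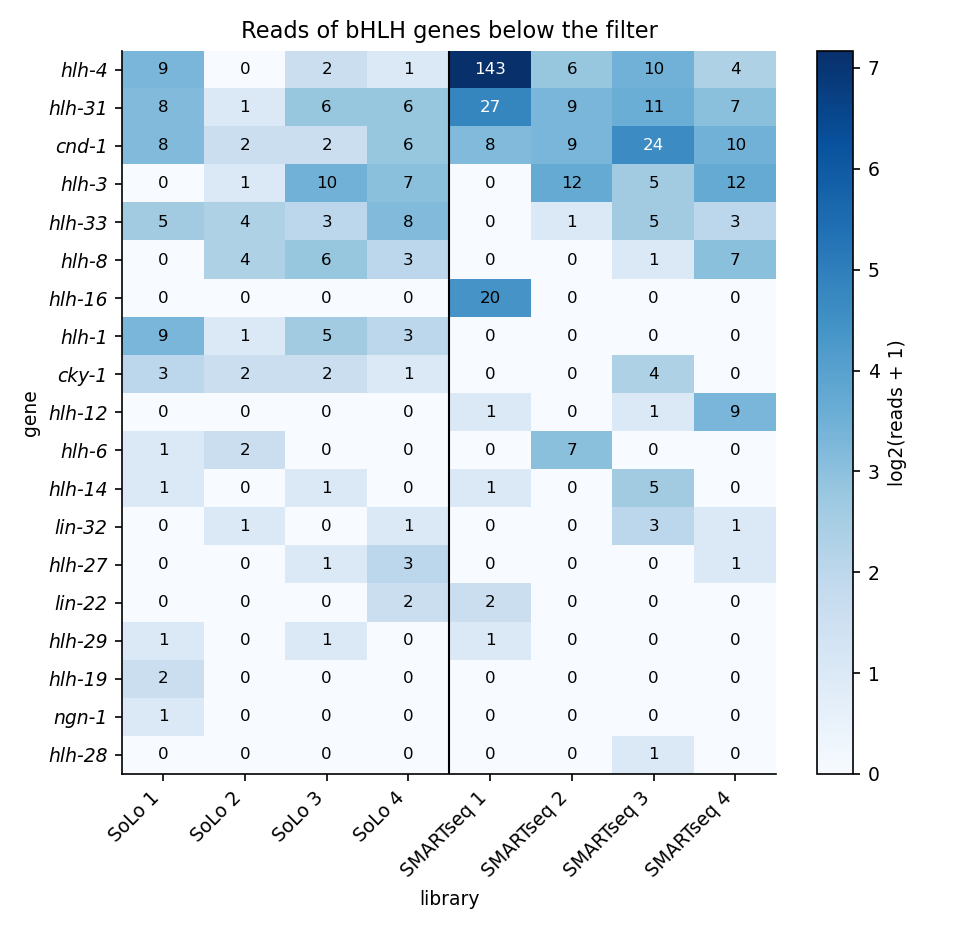
Reads of the bHLH genes below the filter that had any read, printed in each cell, by gene (rows) and library (columns), with colour as log2 of reads plus 1 and a line between SoLo and SMARTseq. The 143 reads of hlh-4 and the 20 of hlh-16 in SMARTseq library 1 stand out, and hlh-1 has reads in SoLo only.

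Among the PAS genes, hif-1, the oxygen-regulated factor, was the one called higher in SoLo. It lies on V (20780407 to 20785260, plus strand) with 2960 exonic bases, and had 1568, 1237, 1295 and 1253 CPM in SoLo and 879, 728, 778 and 814 CPM in SMARTseq. Library 1 was highest in both kits, and no SMARTseq library reached the lowest SoLo library. The log2 fold change was 0.74 ± 0.13 (edgeR's adjusted p = 0.00114), a 1.67-fold difference, with within-sample log2 ratios of 0.83, 0.76, 0.73 and 0.62.

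The ARNT homologue aha-1, common partner of the other PAS proteins, had 39.4, 37.1, 36.0 and 38.8 CPM in SoLo and 28.8, 38.8, 24.7 and 22.6 CPM in SMARTseq. SMARTseq library 2 lay within the SoLo range and the other libraries below it. Its log2 fold change came to 0.40 ± 0.21 (edgeR's adjusted p = 0.144), and without SMARTseq library 2 it was 0.54 (edgeR's adjusted p = 0.0423). Levels of the aryl hydrocarbon receptor gene ahr-1 overlapped, at 21.6, 17.5, 17.9 and 18.9 CPM in SoLo and 20.4, 19.6, 15.5 and 15.3 CPM in SMARTseq, with a log2 fold change of 0.10 ± 0.21 (edgeR's adjusted p = 0.735). Both genes lie on chromosome I, at 10193925 to 10196997 on the minus strand and 9522550 to 9531132 on the plus strand.

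Of the PAS genes, hlh-34 was called higher in SMARTseq. This gene on V (13705967 to 13707395, minus strand, 1028 exonic bases) had 6.10, 5.35, 5.32 and 6.99 CPM in SoLo and 20.9, 28.6, 21.02 and 12.9 CPM in SMARTseq. The groups did not overlap, and the log2 fold change was -1.81 ± 0.30 (edgeR's adjusted p = 0.000832). The NPAS4 homologue cky-1 had 3, 2, 2 and 1 reads in SoLo and 0, 0, 4 and 0 in SMARTseq.

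Of the leucine zipper genes, hlh-30 was higher in SMARTseq and hlh-11 in SoLo. The TFEB homologue hlh-30 lies on IV (4014793 to 4034951, minus strand) with 3268 exonic bases and 13 annotated transcripts. It had 890, 578, 645 and 656 CPM in SoLo and 2073, 1212, 1266 and 1225 CPM in SMARTseq. Library 1 was highest in both kits, yet the lowest SMARTseq library lay above the highest SoLo library. The log2 fold change was -1.06 ± 0.22 (edgeR's adjusted p = 0.00296), a 2.09-fold difference, and the within-sample log2 ratios were -1.22, -1.07, -0.97 and -0.90. With library totals as the only scaling it was -0.52 (edgeR's adjusted p = 0.0691).

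The AP-4 homologue hlh-11 (III, 9619711 to 9626529, plus strand) had 289, 249, 260 and 256 CPM in SoLo and 217, 209, 187 and 137 CPM in SMARTseq. All SoLo libraries were above all SMARTseq libraries, and the log2 fold change was 0.49 ± 0.17 (edgeR's adjusted p = 0.0356). The call was kept without RNA sample 1 (edgeR's adjusted p = 0.00875) or SMARTseq library 1 (edgeR's adjusted p = 0.0222) and lost without any other library or RNA sample, at edgeR's adjusted p-values of 0.0503 to 0.134.

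For the SREBP homologue sbp-1 (III, 11428367 to 11442566, minus strand), levels were 5.54, 3.21, 3.38 and 3.14 CPM in SoLo and 3.94, 0.236, 0.353 and 0 CPM in SMARTseq. RNA sample 1 alone made the kits overlap, with a SMARTseq level 20.03 times the mean of the others. Over all libraries the log2 fold change was 1.64 ± 0.92 (edgeR's adjusted p = 0.17), with the RNA sample as a block 2.41 ± 0.83 (edgeR's adjusted p = 0.0241, and 0.0837 where libraries 2 to 4 were also summed), and without RNA sample 1 it was 3.70 (edgeR's adjusted p = 0.00166). Without SMARTseq library 1 alone it was 3.93 (edgeR's adjusted p = 0.000988). The SMARTseq libraries had 23, 1, 2 and 0 reads of sbp-1, so without library 1 the size of the difference rests on very few SMARTseq reads.

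Together the bHLH genes summed to 2429 ± 318 CPM (SD, n = 4) in the SoLo libraries and to 2885 ± 499 CPM in the SMARTseq libraries, and these ranges overlapped. Most of this came from hif-1, hlh-30 and hlh-11, which held 94.4% ± 0.367 of it in SoLo and 84.0% ± 2.22 in SMARTseq. The order of the leading pair depended on the kit. The ratio of hif-1 to hlh-30 CPM was 1.76, 2.14, 2.01 and 1.91 in SoLo libraries 1 to 4 and 0.424, 0.601, 0.614 and 0.664 in SMARTseq libraries 1 to 4. Every SoLo library therefore had more hif-1 than hlh-30 reads, and every SMARTseq library fewer.

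Levels of different genes were ordered per length, as TPM (counts per exonic base, scaled to a fixed total per library), within each kit. In SoLo hif-1 led with 704 ± 72.9 TPM, followed by hlh-30 with 330 ± 60.8 TPM and hlh-11 with 188 ± 10.3 TPM, each without overlap with the next. Below them hlh-13 and aha-1, both close to 37 TPM, began a series down to hlh-10, at 7.70 ± 1.73 TPM, in which each gene overlapped its neighbour. In SMARTseq hlh-30 led with 434 ± 122.1 TPM, without overlap with the next. There hif-1, with 265 ± 21.8 TPM, hlh-13, with 226 ± 32.1 TPM, hlh-17, with 199 ± 49.4 TPM, and hlh-15, with 118 ± 42.2 TPM, each overlapped the next in order. The Olig gene hlh-17 thus ranked above hlh-11, with 84.4 ± 15.7 TPM, in SMARTseq and far below it, at 16.03 ± 5.01 TPM, in SoLo.

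How many bHLH genes each kit detected at equal depth depended on the minimum of reads. After thinning every library to 2354681 counts, 17, 13, 16 and 17 of the 34 genes had at least 5 reads in SoLo libraries 1 to 4 and 16, 14, 13 and 15 in SMARTseq libraries 1 to 4. The ranges overlapped, with means of 15.8 ± 1.89 and 14.5 ± 1.29 genes. With 1 read as the minimum the kits did not overlap, with 22, 22, 23 and 24 genes in SoLo and 19, 18, 21 and 19 in SMARTseq. The same count was not made over all genes in the table, so this difference cannot be read as a trait of bHLH genes. With 10 reads it was 10, 12, 10 and 11 genes in SoLo and 14, 12, 12 and 12 in SMARTseq, which met at 12. Without thinning, 16.3 and 17.3 genes had at least 5 reads.

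The kit difference of the tested bHLH genes varied with their exonic length. All 6 of those shorter than 1500 bases (hlh-10, hlh-13, hlh-15, hlh-17, hlh-32 and hlh-34) were called higher in SMARTseq, with a median log2 fold change of -2.78. Of the 7 longer ones, 2 were called higher in SoLo and 1, hlh-30, in SMARTseq, with a median of 0.49. Among 5574 tested protein-coding genes shorter than 1500 bases the median was -0.38, with 10.8% called higher in SoLo and 35.4% in SMARTseq, and among 5059 longer ones it was 0.30, with 26.7% and 19.5%. Spearman's rho of length and log2 fold change across genes was 0.85 over the 13 bHLH genes and 0.30 over 10633 protein-coding genes. It is given as a description, since the genes share their libraries and are not independent replicates.

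After the trend over all protein-coding genes was subtracted, an alternative chosen after seeing the data, the log2 difference was -3.56 for hlh-17, -3.09 for hlh-15 and -2.59 for hlh-13. It was -1.60 for hlh-10, -1.12 for hlh-34 and -1.11 for hlh-32. The value of hlh-30 moved away from 0, to -1.41. Those of hif-1 and hlh-11 were 0.44 and 0.43. No called gene changed its direction, and none could, since the trend at its length was smaller in size than its log2 fold change. The part of length in the kit differences was not tested. Ranked among all tested protein-coding genes, the differences left after the trend lay at percentile 0.6 for hlh-17, 2.1 for hlh-15 and 6.4 for hlh-13. The others were well inside the spread of all genes, at 18.4 for hlh-10, 20.7 for hlh-30, 23.8 for hlh-34 and 24.0 for hlh-32. For hif-1 and hlh-11 the percentiles were 59.8 and 59.3. No rank among genes of similar length or level was made, so how unusual these values are among such genes is not known.

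**Figure D3:**
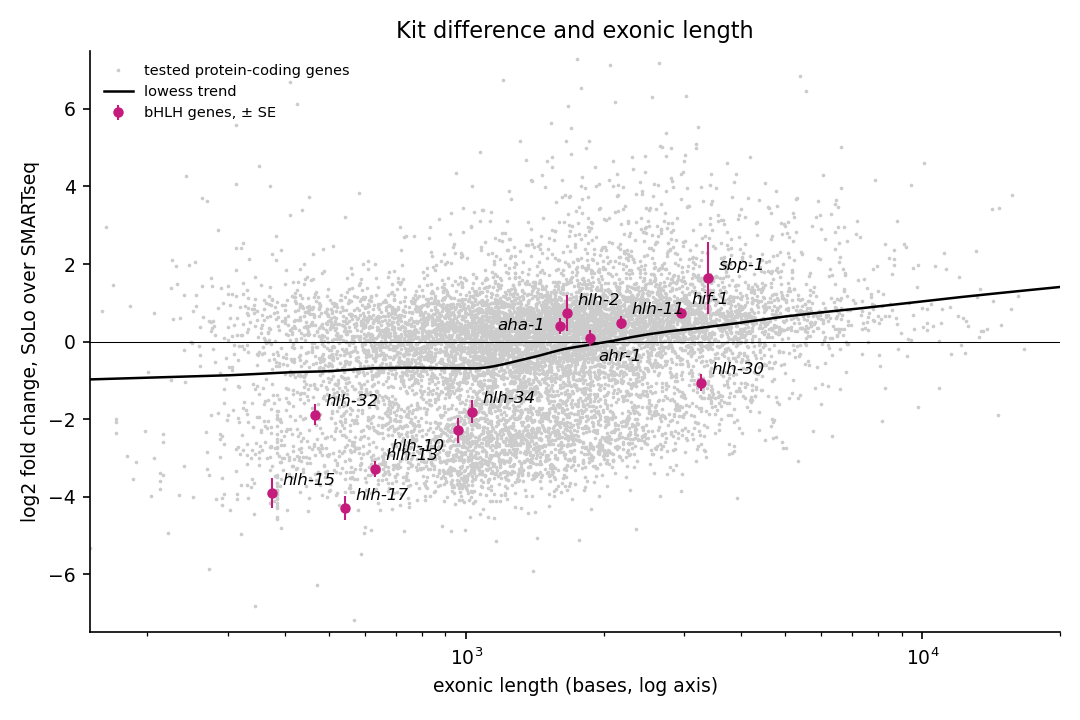
Log2 fold change (SoLo over SMARTseq) against exonic length in bases (log axis) for tested protein-coding genes (grey), with their lowess trend (line) and the 13 tested bHLH genes with their SE (points and bars); 16 genes lie outside the axes. The 6 bHLH genes shorter than 1500 bases all lie below -1.5, as do 30.6% of all genes of that length.

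The bHLH genes of the Max network, which the naming rule left out, differed among themselves. The MAD homologue mdl-1 was higher in SMARTseq, with 236, 250, 289 and 278 CPM in SoLo and 1594, 1979, 1899 and 1804 CPM in SMARTseq, and its log2 fold change stood at -2.79 ± 0.14 (edgeR's adjusted p = 7.47e-07). The Mondo homologue mml-1 was higher in SoLo, at 62.0 ± 3.14 against 26.5 ± 6.62 CPM, which is a log2 fold change of 1.22 ± 0.22 (edgeR's adjusted p = 0.00125). The MAX homologue mxl-1 had 11.5 and 12.7 CPM and a log2 fold change of -0.14 ± 0.25 (edgeR's adjusted p = 0.665).

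The log2 fold changes of mxl-2, the Mlx homologue, and of mxl-3 were -0.68 ± 0.28 and 0.45 ± 0.19 (edgeR's adjusted p = 0.0738 and 0.0747). Both were called with the RNA sample as a block (edgeR's adjusted p = 0.0427 and 0.034) and without RNA sample 1 (edgeR's adjusted p = 0.0115 and 0.026), and mxl-2 also without SMARTseq library 1 alone (edgeR's adjusted p = 0.00912). Also outside the naming rule, neither ref-1, with 1.39 and 0.973 CPM, nor hnd-1, with 0.139 CPM in SoLo and 0 in SMARTseq, passed the filter. Of these 7 genes 5 were tested, with 1 called in each direction, and 2 in each direction with the block or without RNA sample 1. In the main fit 20% of all tested genes were called higher in SoLo and 27.6% in SMARTseq.

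Genes that work with the bHLH proteins mostly were not called or were higher in SoLo. Both Groucho corepressors, partners of HES repressors, were called higher in SoLo: unc-37 at 98.2 ± 6.39 against 61.9 ± 3.40 CPM (log2 fold change 0.67 ± 0.14, edgeR's adjusted p = 0.00356) and lsy-22 at 102 ± 6.15 against 35.9 ± 1.64 CPM (1.51 ± 0.15, edgeR's adjusted p = 2.68e-05). Neither of the 2 chaperone genes of AHR-1 was called, and 1 was called higher in SMARTseq with the block and without RNA sample 1.

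Of 12 genes around HIF-1, 2 were called higher in SoLo and none in SMARTseq, with a median log2 fold change of 0.39. Among all tested genes 20% were called higher in SoLo and 27.6% in SMARTseq. The prolyl hydroxylase gene egl-9, whose product marks HIF-1 for degradation, had 457 ± 42.2 against 228 ± 30.7 CPM, a log2 fold change of 1.003 ± 0.14 (edgeR's adjusted p = 0.000365). The elongin C gene elc-1 had 13.4 ± 1.23 against 1.97 ± 1.29 CPM, a log2 fold change of 2.74 ± 0.47 (edgeR's adjusted p = 0.00111). For vhl-1, which encodes the ubiquitin ligase subunit that recognises hydroxylated HIF-1, it was 1.39 ± 0.55 (edgeR's adjusted p = 0.064). With the block 3 and 1 of the 12 were called, and without RNA sample 1 it was 2 and 1. Over all genes it was 3290 and 3664 of 11378 with the block, and 3005 and 3691 of 11479 without RNA sample 1. With scaling by library totals alone 8 and 0 of the 12 were called, where 4318 of all 11378 tested genes were called higher in SoLo and 2388 in SMARTseq.

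Of 13 genes of the SBP-1 pathway and lipid synthesis, 11 were tested, with 4 called higher in SoLo and 2 in SMARTseq. The shares over all tested genes were 20% and 27.6%. The fatty acid synthase gene fasn-1 had 81.7 ± 11.3 against 18.3 ± 11.8 CPM, a log2 fold change of 2.15 ± 0.42 (edgeR's adjusted p = 0.00221). In the other direction, the S-adenosylmethionine synthetase gene sams-1 had 27.1 ± 6.90 against 195 ± 89.4 CPM, a log2 fold change of -2.84 ± 0.42 (edgeR's adjusted p = 0.000421). Library 1 was the outlying library for the Mediator gene mdt-15 and the lipin gene lpin-1, which had log2 fold changes of 1.24 ± 0.40 and 1.04 ± 0.36 (edgeR's adjusted p = 0.0293 and 0.0364). Each lost its call when SoLo library 1, or SMARTseq library 2, 3 or 4, or RNA sample 2, 3 or 4 was left out, with edgeR's adjusted p-values up to 0.108 for mdt-15 and 0.133 for lpin-1. Without RNA sample 1 their log2 fold changes were 1.49 and 1.18 (edgeR's adjusted p = 5.55e-07 and 6.84e-06).

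The SCAP homologue scp-1, singled out after its values were seen, had 33.5, 487, 458 and 456 CPM in SoLo and 45.9, 2097, 2052 and 2058 CPM in SMARTseq. Library 1 was more than 10 times below the others in both kits, and within libraries 2 to 4 the kits did not overlap. Its log2 fold change was -2.12 ± 1.01 over all libraries (edgeR's adjusted p = 0.112) and -2.17 ± 0.07 without RNA sample 1 (edgeR's adjusted p = 7.74e-10). With the block, 6 of the 11 tested genes of this list were called higher in SoLo and 3 in SMARTseq, and without RNA sample 1 it was 4 and 3. Over all genes it was 3290 and 3664 of 11378 with the block, and 3005 and 3691 of 11479 without RNA sample 1.

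Regulators of HLH-30 and the autophagy and lysosome genes that its homologue TFEB controls mostly had the opposite direction to hlh-30 itself. Of 9 regulators 5 were called higher in SoLo and none in SMARTseq, and of 15 tested autophagy and lysosome genes 8 were called higher in SoLo and 1 in SMARTseq, with medians of 0.65 and 0.66. Of all tested genes 20% were called higher in SoLo and 27.6% in SMARTseq. This lean was not particular to these lists. Of 12 markers of neurons 8 were called higher in SoLo and 1 in SMARTseq, with a median of 0.69. Of 6 markers of pharyngeal muscle it was 4 and 1, with a median of 1.58. Markers of glia, hypodermis, germline and coelomocytes had more genes called higher in SMARTseq than in SoLo. Among the regulators, the folliculin partner gene fnip-2 (T04C4.1 in the table) had 129 ± 93.4 against 11.4 ± 14.9 CPM and a log2 fold change of 3.48 ± 0.94 (edgeR's adjusted p = 0.0126), and the exportin gene xpo-1 had 323 ± 155 against 142 ± 56.1 CPM and 1.19 ± 0.35 (edgeR's adjusted p = 0.0195). The TOR kinase gene let-363 and the Rag GTPase gene ragc-1 had log2 fold changes of 0.81 ± 0.19 and 0.76 ± 0.22 (edgeR's adjusted p = 0.00691 and 0.0192). Without RNA sample 1 the log2 fold change of fnip-2 was 4.19 (edgeR's adjusted p = 1.62e-05) and that of xpo-1 was 1.09 (edgeR's adjusted p = 8.52e-06). For fnip-2 it was 2.86 without SoLo library 1 alone and 4.86 without SMARTseq library 1 alone. The call of fnip-2 was lost without RNA sample 2 or 3, that of xpo-1 without RNA sample 2, 3 or 4 or SMARTseq library 2, 3 or 4, and that of ragc-1 without RNA sample 3 or 4, SoLo library 2, or SMARTseq library 3 or 4. Their highest edgeR's adjusted p-values were then 0.0636, 0.0761 and 0.102.

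Among the autophagy and lysosome genes, atg-18 had 113 ± 26.1 against 52.7 ± 20.9 CPM, a log2 fold change of 1.10 ± 0.29 (edgeR's adjusted p = 0.0107). The proton pump gene vha-16 and the autophagy receptor gene sqst-1 had log2 fold changes of 0.78 ± 0.19 and 0.71 ± 0.19 (edgeR's adjusted p = 0.00746 and 0.011). The exception was the lipase gene lipl-5, with -1.495 ± 0.28 (edgeR's adjusted p = 0.00167). Without RNA sample 3 or 4 atg-18 lost its call (edgeR's adjusted p = 0.063 and 0.0527), as did sqst-1 without RNA sample 2, 3 or 4 (edgeR's adjusted p up to 0.0583). Over the 15 genes 12 and 1 were called with the block and 11 and 1 without RNA sample 1, and for the regulators the counts were 6 and 1 and 5 and 1. With scaling by library totals alone they were 14 and 1 and, for the regulators, 7 and 0. That scaling moved all genes towards SoLo, with 4318 of 11378 called higher in SoLo and 2388 in SMARTseq. With libraries 2 to 4 of each kit summed and no block, edgeR called 0 genes of either list, while 4 and 3 were higher in SoLo at an unadjusted p under 0.05. Intestinal markers, from a tissue in which HLH-30 is well studied, were higher in SoLo for all 4 of their tested genes, with summed levels of 176 to 285 CPM against 42.5 to 71.4 CPM, and their part in these lists was not tested.

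**Figure D4:**
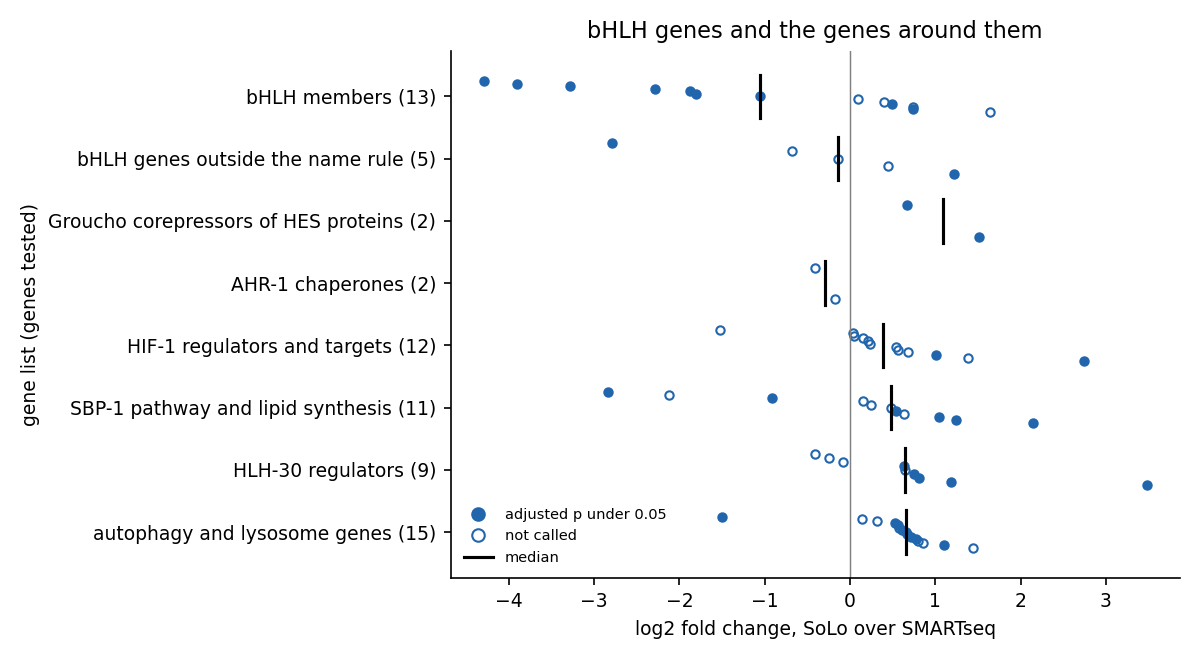
Log2 fold change (SoLo over SMARTseq) of each tested gene, by list, with the number tested in parentheses; filled points were called at an adjusted p under 0.05, open points were not, and black bars are medians. The 13 bHLH genes have the lowest median among the lists plotted, -1.06, and the medians of the HLH-30 regulators and of the autophagy and lysosome genes are 0.65 and 0.66.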

How the data were processed

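The authors deposited raw read counts per gene, 1 column per library, for 8 libraries, and 0 columns belonged to no listed sample. The submitters' processing notes name STAR, SAMtools and featureCounts, with no version, and WBcel235 as build. The sources used here do not give the strand setting or the treatment of reads with several alignments, and values of overlapping genes or near-identical copies are uncertain. Reads without molecular identifiers are not independent molecules, so intervals and floors cover counting error only.

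Counts were tested between kits with edgeR 4.0.16 (R 4.3.3) by its quasi-likelihood test (TMM normalisation, filterByExpr by kit, all 8 libraries, no block, Benjamini-Hochberg adjustment). The SE, an approximation, is the size of the log2 fold change divided by the square root of its F statistic. CPM used TMM factors. TPM used union exonic lengths of Ensembl release 115, matched by name for 42619 of 46748 genes with 95.7% of counts, and is computed over these. Where a kit had 0 reads, the fold was bounded by a floor of 3 counts over its 4 libraries, 0.224 CPM in SoLo and 0.154 CPM in SMARTseq. The script was tested on simulated data. Alternatives were DESeq2 1.42.0, other scalings and filters, a replicate block, libraries left out, and libraries 2 to 4 of a kit summed into 1, which leaves 2 libraries per kit.

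Replicate numbers pair the libraries, because the design splits each RNA sample between kits, and same-numbered libraries deviated together from their kit means, with correlations of 0.741, 0.342, 0.333 and 0.298 over genes. The highest correlation with a library of another number was -0.367, 0.163, 0.312 and 0.317, so that number 4 correlated slightly more with another number than with its own. Every tested bHLH gene is named, the rest by their reads, and of each list of related genes those always named and up to 4 called genes with the largest change. Members and lists were chosen with earlier results of these data known.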

Additional observations from a re-analysis of the deposited data

Results flagged for a closer look

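Within each kit, every bHLH gene and each related gene described above, scp-1 included, was examined where it had at least 10 reads for a library far from the other 3, taken as a gap to the nearest library, divided by the range of the 4, above Dixon's 95% critical value for 4 samples. Chance gives about 1 such case in 20 independent groups with normal spread. The groups here share the same libraries, and some hold few reads. Of 87 groups 19 passed, and 17 of these concern library 1 of either kit. Both counts include scp-1 in each kit, which was singled out after its values were seen and so cannot be set against that rate. The screen was not run over all genes, among which library 1 also stood apart in both kits. The counts therefore cannot be read as a trait of bHLH or related genes. In SMARTseq library 1 the ratio was 1.0 for hlh-16, 0.971 for hlh-4, 0.937 for hlh-30, 0.912 for hlh-31, 0.910 for sbp-1 and 0.847 for hlh-13, all with library 1 high. In SoLo library 1 it was 0.901 for sbp-1 and 0.886 for hlh-2, again high. The remaining bHLH case was hlh-12, high in SMARTseq library 4 with a ratio of 0.927. Of the related genes, the ratio in SoLo library 1 was 0.911 for T04C4.1 (fnip-2), 0.893 for xpo-1, 0.885 for mdt-15, 0.872 for let-363 and 0.865 for lpin-1. In SMARTseq library 1 it was 0.929 for lpin-1 and 0.870 for mdt-15. For scp-1, low in library 1, it was 0.932 in SoLo and 0.978 in SMARTseq, and mml-1 had 0.877 in SoLo library 3.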

How the results depend on the processing

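The log2 fold changes of hlh-13 (-3.37 to -2.74) and hlh-17 (-4.47 to -3.76) passed the threshold in all 20 settings run. The count of bHLH genes higher in SoLo, 2, was 5 with library totals as the only scaling, 4 with the replicate block, 0 with libraries 2 to 4 summed and no replicate block, and 1 to 4 when libraries or RNA samples were left out. It was 4 without RNA sample 1 or SMARTseq library 1, 2 without SMARTseq library 2 and 1 in the other removals. The count higher in SMARTseq, 7, stayed at 7 in every removal and with the block, and was 2 with libraries 2 to 4 summed and no block, where hlh-13 and hlh-17 were called. The summed fit has 2 libraries per kit, and 1 and 7 genes had an unadjusted p under 0.05. Summed and blocked, 3 and 8 were called, hlh-4 being the eighth (-2.81 ± 0.61, edgeR's adjusted p = 0.00227). Over all genes, 4318 were higher in SoLo with library totals and 490 with libraries summed, 1472 to 3005 in the removals, and 851 were higher in SMARTseq with libraries summed. Of called genes 42.0% were higher in SoLo in edgeR with TMM and 64.4% with library totals; of called bHLH genes, 22.2% and 45.5%. The log2 fold change of ahr-1 was -0.00018 without SMARTseq library 4 (edgeR's adjusted p = 0.999), a change of sign, and at most 0.20 in the other removals. With library totals aha-1, ahr-1 and hlh-2 were also called higher in SoLo. The block changed the calls of hlh-2 and sbp-1 and of no other tested bHLH gene, and with libraries summed as well hlh-2 was still called (edgeR's adjusted p = 0.0442) and sbp-1 was not (0.0837). With DESeq2, 3 and 7 were called, hlh-1 being the addition (5.18 ± 1.72, DESeq2 adjusted p = 0.00967). Over the settings run, edgeR's and DESeq2's adjusted p lay between 0.0169 and 0.507 for hlh-2, 0.000988 and 0.579 for sbp-1, 0.00297 and 0.392 for aha-1, and 0.000703 and 0.225 for hlh-11. Where these genes were tested, the calls of hif-1, hlh-10, hlh-15, hlh-32 and hlh-34 were lost only with libraries summed and no block, at adjusted p up to 0.102, and that of hlh-30 there (0.151) and with library totals. The cause was not tested.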
